A study of Mus musculus with 8 samples.

Results

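The motile cilium and axoneme genes are the genes for the parts that let a cilium or a sperm tail beat, together with the factors that assemble those parts and the transcription factor Foxj1. The set held 43 genes chosen by name, of the 20018 genes that could be named on the array, and a gene was represented by every non-control probe whose RefSeq transcript belonged to it. 38 of the 43 genes had at least 1 probe and 5 (Dnah7b, Dnah12, Ccdc40, Ccdc114 and Cfap54) had none by this rule. The 38 genes were read by 52 probes, with 25 genes on 1 probe, 12 genes on 2 probes and Ccdc65 on 3 probes.

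Whole retinas of 2-week-old mice of strain C57BL/6 were compared between wildtype (WT) animals and Lpcat1 knockout (KO) animals, with 4 samples of each genotype and no other treatment. LPCAT1 is the acyltransferase that makes saturated phosphatidylcholine, and the study used the deletion to ask what its loss does to the photoreceptors. Total RNA of each sample was hybridised in 1 colour (Cy3) to a mouse gene expression array, and all 8 arrays lay on 1 slide. The WT arrays occupied one row of the slide and the KO arrays the other, so row and genotype cannot be told apart. The KO line was made on C57BL6/N and crossed to C57BL6/J, and the labels do not say whether the samples of a genotype came from separate animals or litters. The p-values below therefore measure the spread between these samples, which may be technical. The level of a probe is log2 of its background-subtracted signal minus the 75th percentile of the same array, so a level of 0 is a bright probe and a difference of -1 is a lower signal by a factor of 2.

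In a motile cilium, outer doublet microtubules surround a central pair. Dynein arms, built from heavy, intermediate and light chains, walk along the neighbouring doublet, while radial spokes and the central apparatus regulate them and nexin links hold the doublets together. Tektins are filament proteins inside the doublet wall, the preassembly factors fold dynein arms in the cytoplasm before they enter the cilium, and FOXJ1 and RFX proteins switch on the genes of motile cilia. The light-sensing outer segment of a photoreceptor grows from a modified cilium that has an axoneme of outer doublets but no central pair and does not beat, whereas dynein arms and spokes are best known from beating cilia.

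Between 33113 and 36373 of 55681 probes stood well above background on an array, no spot was saturated, and all 22 rod markers examined were above background on all 8 arrays. The probe for Lpcat1 read -0.41 ± 0.03 (SD, n = 4) in WT and -0.87 ± 0.06 (SD, n = 4) in KO, a difference of -0.46 with an adjusted p = 0.0036 from limma. Where this probe lies relative to the deleted part was not examined, so it is no check of the deletion itself.

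Most of the axoneme genes were read above background in the retina. Of the 52 probes, 37 (71.2%) were well above background on all 8 arrays and 10 (19.2%) on none, against 57.4% and 29.6% of all 55681 probes. Of all those probes only 47.4% could be named by a gene, so the shares are not of like probes. The probes above background on no array were those for the outer arm heavy chain Dnah5, both probes each for the central apparatus genes Spag6, Spag16 and Spag17, 1 probe each for Rsph1 and Hydin, and the probe for the adenylate kinase Ak7. The 5 remaining probes were above background on some arrays. The inner arm light chain Dnali1 was above background on 2 WT and no KO arrays, the second Rsph1 probe on 2 WT and no KO arrays, the first Rsph4a probe on 2 of each genotype, the third Ccdc65 probe on 4 WT arrays and 1 KO array, and the assembly factor Lrrc6 on 4 WT and 2 KO arrays. A probe was tested if it was above background on all 4 arrays of a genotype, which left 39 probes of 31 genes. By gene, 31 of the 38 members with a probe could be tested, beside 14939 of all 20018 named genes. The third Ccdc65 probe and Lrrc6 entered through WT alone and none entered through KO alone, and Dnah5, Dnali1, Rsph1, Spag6, Spag16, Spag17 and Ak7 had a probe but none that could be tested.

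**Figure D1:**
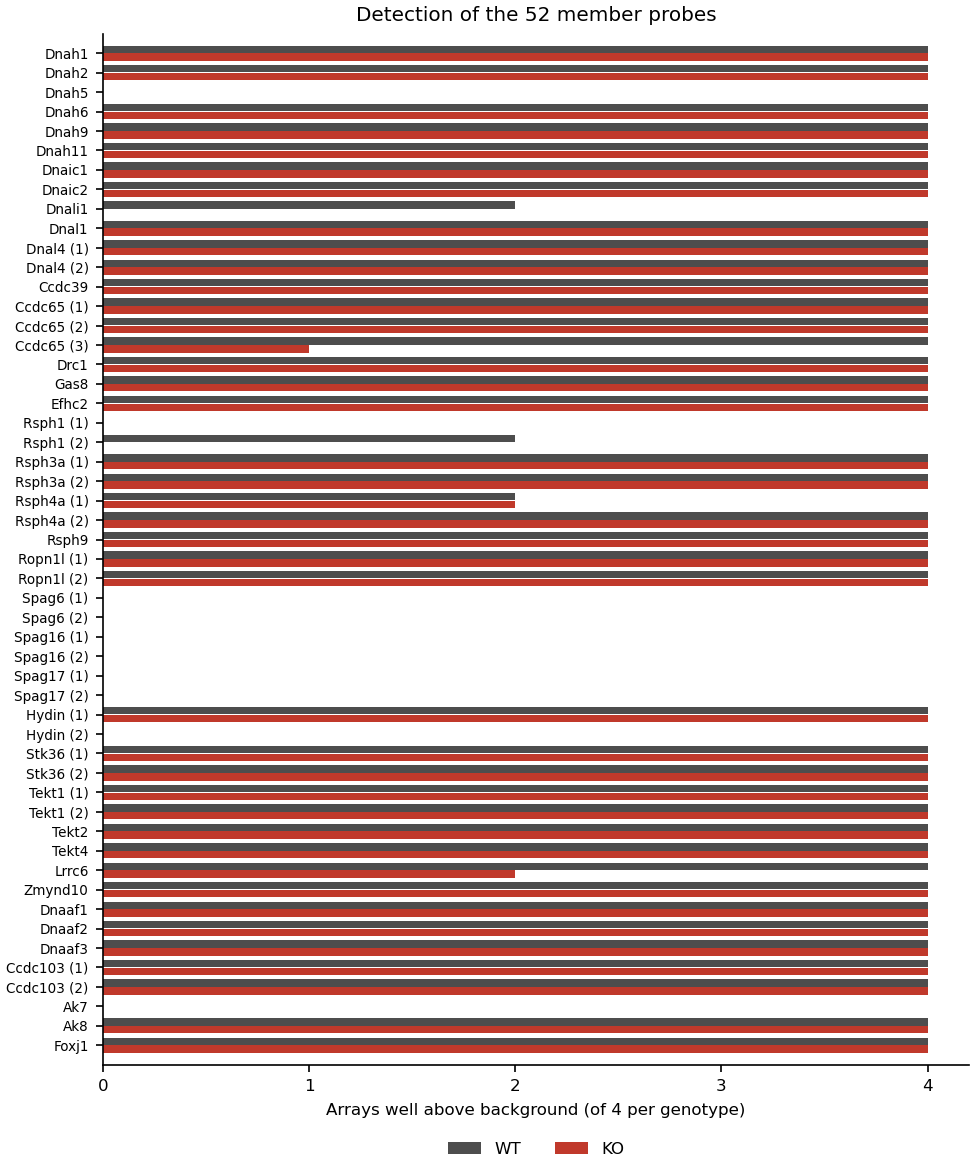
Number of arrays, of 4 per genotype, on which each of the 52 probes was well above background, with WT in grey and KO in red and the probes of 1 gene numbered. The bars are full in both genotypes for 37 probes and empty for 10, among them all 6 probes of Spag6, Spag16 and Spag17.

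The axoneme genes that changed were lower in the KO retina and were few: Rsph9, a head protein of the radial spoke, fell by 0.55 on the log2 scale, the outer arm intermediate chain Dnaic2 by 0.33, and the dynein arm assembly factor Ccdc103 by 0.33 and 0.29 on its 2 probes. A probe was called when its adjusted p from limma, corrected over all 33972 tested probes, was under 0.05 and its fold change over 1.2. By this rule 4 of the 39 tested probes were called lower and 0 higher, against 1.54% of all tested probes called lower and 1.38% called higher. At an unadjusted p under 0.05, 13 probes were lower and 5 higher, against 15.6% and 8.13% of all tested probes. The methods' t-test after Benjamini-Hochberg adjustment also called 0 higher. By adjusted p alone, 7 probes were lower and 0 higher, where 3.3% of all tested probes were lower. The KO values lay wholly below the WT values in 11 of the 39 probes and wholly above in 4, against 11.4% and 6.05% of all tested probes. In whole retina, fewer cells of a type and less RNA per cell cannot be told apart.

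Taken over the whole set the shift was small. The median difference over the 39 probes was -0.11, with a range from -0.56 to 0.48, and 29 of them (74.4%) had a negative sign, against a median of -0.04 and 62% negative over all tested probes. Counting each gene once by its brightest probe, 22 of 31 genes were negative and the median was -0.09. The median of those 31 genes on each array, relative to the WT mean of each gene, lay between -0.03 and 0.03 in WT and between -0.07 and -0.01 in KO, so the genotypes overlapped.

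**Figure D2:**
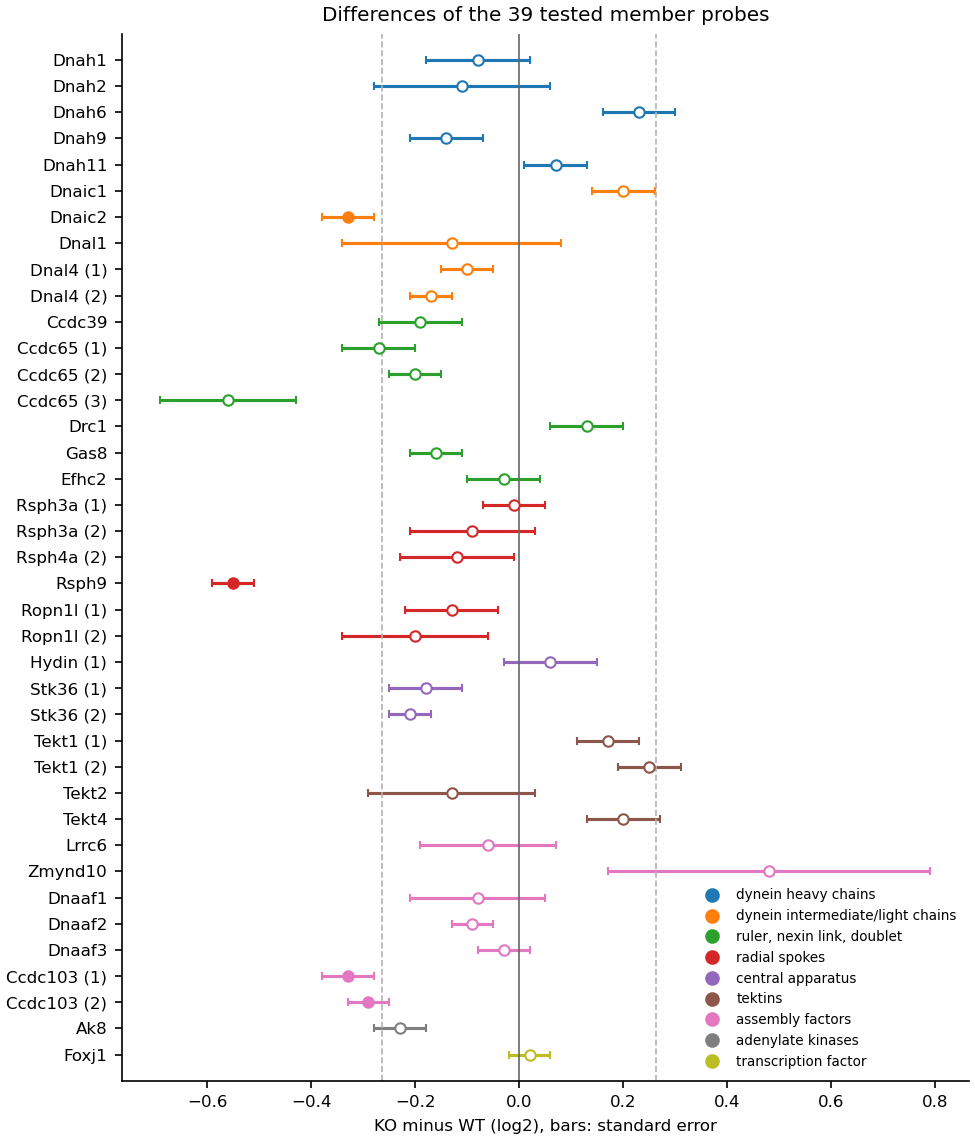
KO minus WT difference (log2) of each of the 39 tested probes with its standard error, coloured by role, with filled points for called probes and dashed lines at a fold change of 1.2. The 4 filled points, Rsph9, Dnaic2 and the 2 probes of Ccdc103, all lie left of 0, and 3 of the 4 tektin points lie right of it.

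The dynein heavy chains are the motors, and none of the 5 that could be tested was called. Dnah1 (-0.08), Dnah2 (-0.11) and Dnah9 (-0.14) had negative differences, Dnah6 (0.23) and Dnah11 (0.07) positive ones, and the median was -0.08. Dnah6, an inner arm heavy chain, had the largest of these. It read -3.32, -3.57, -3.43 and -3.53 in WT replicates 1 to 4 and -3.12, -3.19, -3.38 and -3.23 in the KO, a difference of 0.23 (SE 0.07) with an adjusted p = 0.112 from limma. The genotypes overlapped, since the third KO retina lay below the first WT retina. The heavy chains form a large family with similar sequences, and cross-hybridisation between members was not examined.

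The intermediate and light chains, which anchor and adjust the motors, held 1 called gene among the 4 that could be tested. Dnaic2 (also named Dnai2), an intermediate chain of the outer arm, read 1.16, 1.16, 1.09 and 1.02 in WT and 0.72, 0.81, 0.82 and 0.77 in KO. The difference was -0.33 (SE 0.05, adjusted p = 0.0119 from limma), a KO signal of 79.6% of WT. Every KO retina was below every WT retina. Under the replicate block the adjusted p was 0.0527, with no filter on dim probes it was 0.0517, and over all alternatives it ran from 0.00073 to 0.0527. Relative to the rod markers described below, the difference was -0.18 and under the fold limit.

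Dnaic1 (also named Dnai1), the partner intermediate chain in the same outer arm, had the opposite sign. Its level was -0.62, -0.82, -0.70 and -0.78 in WT and -0.51, -0.54, -0.62 and -0.47 in KO, a difference of 0.20 (SE 0.06) that did not pass (adjusted p = 0.0778 from limma). Every KO retina lay above every WT retina, although the third KO and the first WT retina were equal at 2 decimals. The light chain Dnal4 was read by 2 probes, both negative. The second read 1.73, 1.77, 1.76 and 1.71 in WT and 1.5, 1.59, 1.59 and 1.58 in KO, which is -0.17 (SE 0.04, adjusted p = 0.04 from limma) and under the fold limit. All KO retinas lay below all WT retinas, the first KO retina farthest, while the first Dnal4 probe (-0.10, adjusted p = 0.297) overlapped. Dnal1, an outer arm light chain, differed by -0.13 (SE 0.21).

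The doublet ruler, nexin link and doublet-associated genes gave 6 negative differences of 7 probes, with a median of -0.19 and no call. Ccdc65 (also named Drc2), a subunit of the nexin-dynein regulatory complex, was negative on all 3 of its probes. The brightest read -0.07, -0.06, -0.06 and -0.16 in WT and -0.29, -0.38, -0.19 and -0.31 in KO, a difference of -0.20 (SE 0.05, adjusted p = 0.0548 from limma) without overlap. The third probe read -4.32, -3.89, -4.0 and -4.38 in WT and -4.68, -4.96, -4.56 and -4.60 in KO, or -0.56 (SE 0.13, adjusted p = 0.0508). It was above background on 1 KO array alone, and with another background correction (normexp) its difference was 0.04. The first Ccdc65 probe differed by -0.27 (adjusted p = 0.0718).

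The other nexin link subunits were not called. Gas8 (Drc4) read between 3.11 and 3.28 in WT and between 3.01 and 3.12 in KO, a difference of -0.16 (SE 0.05, adjusted p = 0.0907 from limma), and its genotypes overlapped by 1 KO retina. Drc1 differed by 0.13 (SE 0.07) with overlap. Ccdc39, one part of the ruler that sets the repeat along the doublet, differed by -0.19 (SE 0.08, adjusted p = 0.199), and Efhc2, a protein of the doublet lumen, by -0.03.

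The radial spoke genes were negative on all 6 tested probes, with a median of -0.13, but 1 gene was called. Rsph9 had the strongest change of the 31 tested genes by adjusted p. It read 1.96, 1.89, 1.97 and 1.98 in WT replicates 1 to 4 and 1.46, 1.37, 1.44 and 1.35 in KO, a difference of -0.55 (SE 0.04, adjusted p = 0.00215 from limma), so that the KO signal was 68.4% of WT. The gap between the lowest WT and the highest KO retina was far wider than the spread within either genotype. The call held at every alternative that was tested except a fold limit of 1.5, with adjusted p-values from 9.4e-06 to 0.0378.

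The other spoke genes overlapped between the genotypes on every tested probe. Rsph4a, the second head protein, differed by -0.12 (SE 0.11, adjusted p = 0.527 from limma) on the probe that could be tested. Rsph3a, a stalk protein with a near-identical copy (Rsph3b) that may share its probes, differed by -0.01 and -0.09. Ropn1l, which sits at the spoke stalk, differed by -0.13 and -0.20 on its 2 probes (adjusted p = 0.429 for both). The sequence before the Rsph9 start is shown because it is the member that fell most clearly. It is taken from RefSeq on GRCm38.p6, 5′ to 3′ on the strand of the gene, and its 208 bases end where the annotated gene begins.
Rsph9 (chr17:46144243-46144450, minus strand): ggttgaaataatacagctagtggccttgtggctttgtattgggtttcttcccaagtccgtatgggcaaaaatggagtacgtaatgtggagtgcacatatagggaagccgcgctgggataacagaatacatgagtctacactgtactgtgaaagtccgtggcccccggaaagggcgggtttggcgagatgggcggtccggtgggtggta

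In the central apparatus, 3 probes of 2 genes could be tested and none was called. Stk36, a kinase-related protein needed to build the central pair, had negative differences without overlap on both of its probes. The second read 0.17, 0.17, 0.18 and 0.13 in WT and -0.11, -0.09, -0.00 and 0.03 in KO, a difference of -0.21 (SE 0.04, adjusted p = 0.0386 from limma), which is under the fold limit. The first differed by -0.18 (SE 0.07, adjusted p = 0.159). Hydin, a large protein of a central pair projection, differed by 0.06 (SE 0.09).

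None of the 4 tested tektin probes was called, and their median difference was 0.18. The 2 probes of Tekt1 and the probe of Tekt4 were positive with every KO retina above every WT retina, as were 6.05% of all tested probes, and Tekt2 was negative. Tekt1 was read by 2 probes. The second read -0.90, -0.84, -0.82 and -0.98 in WT and -0.70, -0.69, -0.68 and -0.49 in KO, a difference of 0.25 (SE 0.06, adjusted p = 0.0539 from limma), with the fourth KO retina highest. Scaled to the 75th percentile of the probes detected on all arrays, it was 0.27 with an adjusted p of 0.0443 and was called higher, while over all alternatives the adjusted p ran from 0.0225 to 0.137. The first probe read -1.30, -1.37, -1.29 and -1.48 in WT and -1.23, -1.22, -1.23 and -1.10 in KO, or 0.17 (SE 0.06, adjusted p = 0.113).

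Tekt4 read -1.62, -1.66, -1.59 and -1.69 in WT and -1.22, -1.54, -1.50 and -1.49 in KO, a difference of 0.20 (SE 0.07, adjusted p = 0.144 from limma). All KO retinas lay above all WT retinas and the first lay highest. Tekt2 differed by -0.13 (SE 0.16, adjusted p = 0.645) with overlap.

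Among the dynein preassembly factors, Ccdc103 alone was called, and it was called on both probes. The first probe read -0.54, -0.48, -0.47 and -0.62 in WT and -0.89, -0.92, -0.80 and -0.81 in KO, a difference of -0.33 (SE 0.05, adjusted p = 0.0153 from limma). The second read -0.75, -0.76, -0.74 and -0.71 in WT and -0.94, -1.10, -1.04 and -1.05 in KO, a difference of -0.29 (SE 0.04, adjusted p = 0.0147). Neither probe overlapped, and the KO signal was 79.7% and 81.8% of WT. Without the second WT retina both calls were lost (adjusted p = 0.0571 and 0.0509), and without the second KO retina the first was lost (0.0503). Under the replicate block the adjusted p was 0.058 and 0.0564, and with no filter on dim probes, where it was largest, 0.0603 and 0.0597. With normexp the second probe differed by -0.25, under the fold limit, and relative to the rod markers both probes were under it, at -0.18 and -0.14.

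The other 5 assembly factors were not called. Zmynd10 read -3.29, -3.08, -3.18 and -3.24 in WT and -3.39, -2.82, -1.70 and -2.95 in KO, so that its difference of 0.48 (SE 0.31, adjusted p = 0.393 from limma) rested on the third KO retina and was 0.14 without it. Dnaaf2 (-0.09, SE 0.04) did not overlap but did not pass (adjusted p = 0.211). Dnaaf1 (-0.08), Dnaaf3 (-0.03) and Lrrc6 (-0.06) overlapped. The sequence upstream of Ccdc103 (RefSeq, GRCm38.p6) is shown beside that of Rsph9 for the same reason, as a member called lower.
Ccdc103 (chr11:102880974-102881223, plus strand): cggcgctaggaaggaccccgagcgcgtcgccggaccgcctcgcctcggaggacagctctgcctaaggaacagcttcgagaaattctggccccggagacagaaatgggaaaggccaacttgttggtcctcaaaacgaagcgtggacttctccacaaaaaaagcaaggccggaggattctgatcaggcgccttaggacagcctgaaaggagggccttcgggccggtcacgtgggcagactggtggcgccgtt

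Foxj1, the transcription factor of motile cilia, had a difference near 0. It read -0.90, -0.91, -0.79 and -0.95 in WT and -0.89, -0.86, -0.82 and -0.90 in KO, a difference of 0.02 (SE 0.04, adjusted p = 0.807 from limma). The KO values lay inside the WT range. Ak8, an adenylate kinase of motile cilia whose probe is spotted 10 times on each array, read -1.68, -1.71, -1.77 and -1.77 in WT and -1.89, -1.97, -2.04 and -1.93 in KO, or -0.23 (SE 0.05, adjusted p = 0.0328). The genotypes did not overlap and the difference was under the fold limit.

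**Figure D3:**
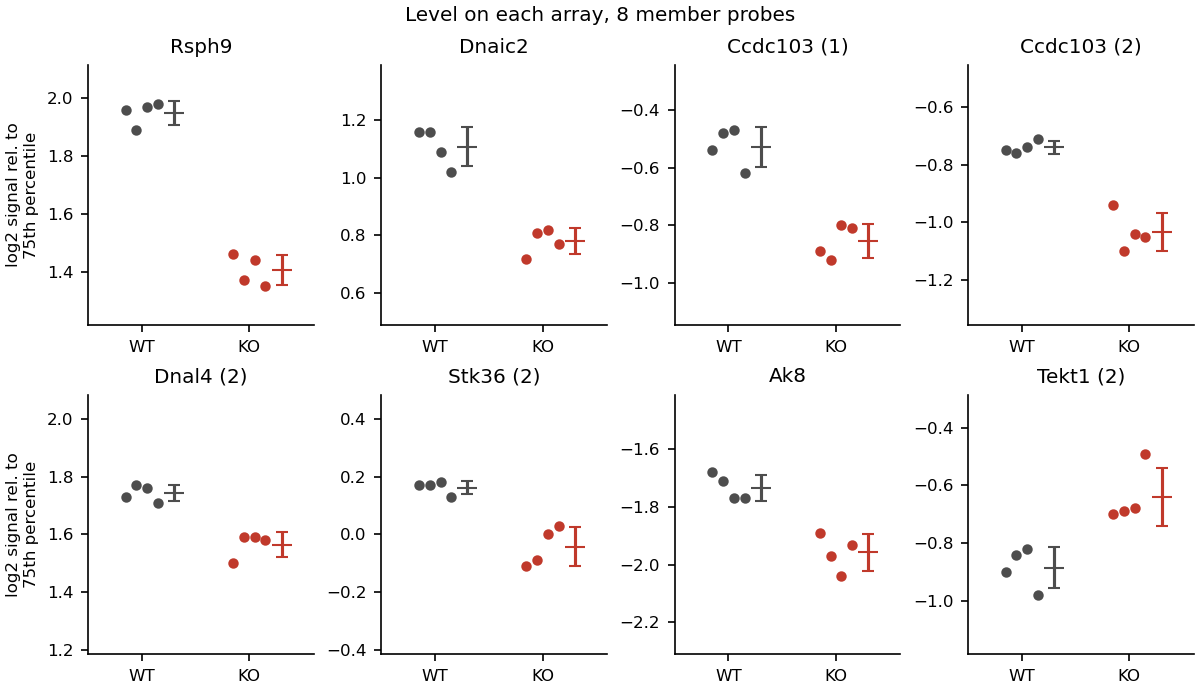
Level on each array (log2 units above or below that array's 75th percentile) for 8 probes, with the mean and SD of 4 retinas per genotype beside the points and an equal span on every axis. The WT and KO points are apart in all 8 panels, with the widest gap for Rsph9 and the opposite direction for Tekt1.

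Upstream sequence was compared for the 37 members with an entry among the RefSeq promoter windows (GRCm38.p6), using the 250 bases before each listed start. Regulatory factor X (RFX) proteins bind a pair of inverted half-sites, and the half-site letters GTTGCC were searched on both strands, so that the opposite strand reads GGCAAC. They occurred in 11 of 37 members (29.7%), in 20 of 55 other axoneme genes (36.4%) and in 11.8% of all 27025 genes with a window. The forkhead letters TGTTTAC, of the kind FOXJ1 binds, occurred in 1 of 37 members (2.7%, Ak7), in 9.09% of the other axoneme genes and in 3.54% of all genes, and no member held both. Such a match describes letters in a window and is not a binding site. The members below are shown because they hold the half-site and could be tested, in 30 bases on the strand of the gene with the half-site in capitals.
Dnaic2 (chr11:114727381-114727410, plus strand): ccagggttgctaGGCAACtggtaaactccg
Tekt1 (chr11:72361900-72361929, minus strand): tcttctaactagGGCAACgttgcgtccgtc
Tekt1 (chr11:72361883-72361912, minus strand): cgttgcgtccgtccgGTTGCCatagagacc
Tekt2 (chr4:126325767-126325796, minus strand): cgcagctgcgcgGTTGCCtggctaagctga
Tekt2 (chr4:126325693-126325722, minus strand): gggcggttgctcGGCAACcagagccgcaaa
Hydin (chr8:110266947-110266976, plus strand): cactctgcggttgctgtGGCAACagatggt
Gas8 (chr8:123518725-123518754, plus strand): caatacaccgagGGCAACactagctcttct
Gas8 (chr8:123518769-123518798, plus strand): gacgcactcccgGTTGCCcaggtcccttag
Drc1 (chr5:30281363-30281392, plus strand): caggtgactgctttcccttGGCAACggctt
Dnaaf2 (chr12:69198430-69198459, minus strand): cctcctcccaggcgttactatGGCAACaaa
Ropn1l (chr15:31453692-31453721, minus strand): tgcgcagctcggGTTGCCtggagaccgcac

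The differences of these 8 genes did not share a sign. Dnaic2, whose half-site lies 26 bases before a listed start that is not the first of its gene, was called lower (-0.33), while Tekt1, with half-sites at 35 and 15 bases, was at 0.25 and 0.17. Drc1 was at 0.13 and Hydin at 0.06, Tekt2 and the first Ropn1l probe were at -0.13, Gas8 was at -0.16 and Dnaaf2 at -0.09. The windows of Rsph9 and Ccdc103 hold neither set of letters in the 250 bases searched, of which the 208 outside the annotated gene are printed for Rsph9.

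A wider list of other axoneme genes was drawn up by role, with 74 names of which 71 matched a gene in RefSeq. 59 had a probe and 46 could be tested, and by the brightest probe of each gene 8 were called lower and 0 higher with a median of -0.10. Of all 14939 genes tested in this way 1.49% were called lower and the median was -0.02, and of the members 3 of 31 were called lower. Among the 5 tested dynein genes of this list 1 was called. Dynlrb2, a light chain of the roadblock family, fell by 0.66, from 1.68 ± 0.05 (SD, n = 4) to 1.02 ± 0.07 (adjusted p = 0.00195 from limma). Among the doublet proteins Cfap126, a basal body and axoneme protein, fell by 0.59 (adjusted p = 0.00233) and Mns1, a protein inside the doublet, by 0.28 (adjusted p = 0.023).

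The spoke and assembly roles also held called genes outside the member set. Cfap206, at the base of a radial spoke, fell by 0.49, from 0.48 ± 0.08 (SD, n = 4) to -0.00 ± 0.04 (adjusted p = 0.00475 from limma), and the spoke protein Nme5 fell by 0.31 (adjusted p = 0.00964). The assembly factors Dnaaf4 and Pih1d2 fell by 0.35 and 0.29 (adjusted p = 0.00985 and 0.0239), and the nexin link gene Drc3 fell by 0.29 (adjusted p = 0.033). Of the 28 tested genes for intraflagellar transport, the traffic system that builds all cilia, 26 had a negative difference, against 57.8% of all 14939 genes, and 0 were called. By adjusted p alone 4 were lower, against 3.32% of all genes, and the median was -0.10.

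Cells with many motile cilia were looked for with 13 marker genes. Of the 12 with a probe, Gmnc, Tmem212 and Sntn were above background on no array, 8 could be tested and none was called. Their summed signal, in units of the array's 75th percentile, ran from 20.9 to 29.8 in WT and from 20.9 to 29 in KO, so the genotypes overlapped. Mcidas alone gave 18.9 to 27.7 of this in WT and 18.9 to 27 in KO, and the other 11 genes together summed to 1.99 to 2.05 in WT and 1.89 to 2.03 in KO. The ependyma and other multiciliated tissue express the same axoneme genes as the member set, so these markers were kept apart from it.

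Markers of the retina's own cells also differed between the genotypes. Of 22 rod markers 5 were called lower (among them Nr2e3 by 0.50, Rdh12 by 0.38, Sag by 0.36 and Gnb1 by 0.30), the median was -0.20, and the summed signal ran from 3363 to 3485 in WT and from 2848 to 3035 in KO. With each array scaled to its rod marker median, a check added after the data were seen, the differences were -0.40 for Rsph9, -0.18 for Dnaic2, and -0.18 and -0.14 for Ccdc103. On that scale, for which no p was computed, Rsph9 alone of the called members was past the fold limit of 1.2. The scaling used the median of the rod list's levels on each array, which moved by less than the median gene difference of -0.20. Taken relative to each gene's WT mean, the rod medians of the KO arrays lay between -0.22 and -0.17. The scaling is not a test, and the part of the rod markers in the member differences was not tested. Of the cone markers 2 of 9 were called higher (median 0.20), of the Müller glia markers 3 of 9 (median 0.20) and of the microglia markers 6 of 12 (median 0.35), against 1.99% of all genes tested in this way, with none of the 3 lists holding a gene called lower. The summed signals in WT against KO were 208 to 214 against 237 to 248 for cone, 342 to 360 against 409 to 417 for Müller glia, and 14.3 to 15.5 against 18.1 to 18.9 for microglia markers. No marker of the pigment epithelium (median 0.06, sums of 24.8 to 30.6 against 25 to 31.2) or of the lens (median -0.23, sums of 1.2 to 1.36 against 1.15 to 1.29) was called, and Slc45a2 and Crygb were above background on no array. The part of each list in the member differences was not tested.

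**Figure D4:**
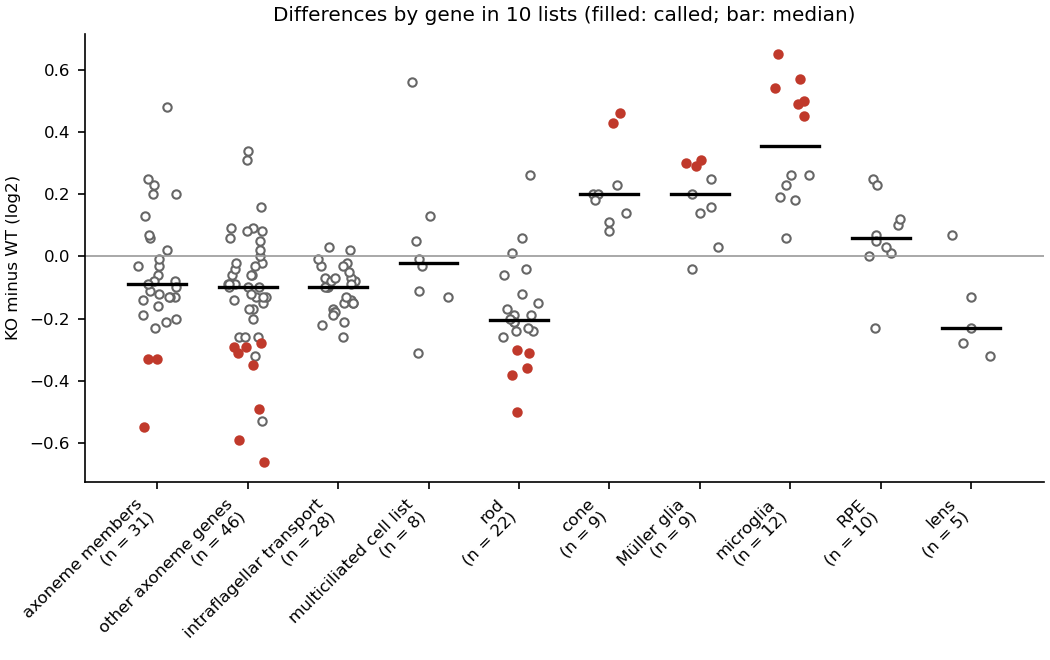
KO minus WT difference (log2) of each tested gene, by its brightest probe, in 10 gene lists, with the number of genes under each name, filled points for called genes and a bar at the median. The axoneme members and the other axoneme genes have medians of -0.09 and -0.10 with called genes only below 0, the rod list lies at -0.20, and the medians of the cone, Müller glia and microglia lists lie above 0.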

How the data were processed

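The authors hybridised total RNA of 4 WT and 4 KO retinas, extracted the arrays with Agilent Feature Extraction 10.7.1.1 and deposited the intensity of each spot, of which the processed signal is background-subtracted, with flags. They also deposited log2 values shifted to the 75th percentile, used here as an alternative. From the deposited intensity, control spots (3671 of 62976) and outlier spots (86 to 147 per array) were left out, each array's 75th percentile was subtracted on the log2 scale, and spots of 1 probe were averaged. Probes were named by RefSeq transcript (26413 of 55681 matched), which names the gene and not its position. limma 3.58.1 in R 4.3.3 (lmFit, eBayes) was fitted to all 33972 tested probes with Benjamini-Hochberg adjustment. The same fit was also run on simulated data with independent noise for each probe. That run held no slide row or shared replicate effect, so it is no check of the calls against these. The precision is limited by 4 arrays per genotype, for which an exact permutation test could give no p below 0.0286.

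The members and lists were chosen with earlier results of these data known. Every member was accounted for. Values on each array were given for members with a called probe and for the member with the largest difference in each role, and Dnaic1, Dnal4, the brighter Ccdc65 probe, the first Tekt1 probe and Tekt4 were added after their values were seen. In the other lists called genes were named. Alternatives were scaling, background, filters, fold limits, the test, the replicate block and leaving out each retina. The labels do not say that a replicate number marks a litter or an animal.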

Additional observations from a re-analysis of the deposited data

Results flagged for a closer look

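In each of the 39 tested probes, the 4 WT and the 4 KO retinas were examined for a retina far from the other 3, as the share of the group's range taken by its gap to the nearest. Of these 78 groups 10 had one, where chance alone gives about 1 in 20 groups. The fourth KO retina stood apart on both Tekt1 probes, at -1.10 against -1.23 to -1.22 on the first (0.883 of the range) and at -0.49 against -0.70 to -0.68 on the second (0.904). It also stood apart for Drc1, at -1.07 against -1.03 (0.949), and for the second Rsph4a probe, at -3.04 against -3.43 to -3.41 (0.962). The first KO retina stood apart on 4 probes. It lay at 1.5 against 1.58 to 1.59 on the second Dnal4 probe (0.862), at -2.47 against -2.67 to -2.64 on the first Ccdc65 probe (0.877), at -2.68 against -2.88 to -2.86 for Hydin (0.896) and at -1.22 against -1.54 to -1.49 for Tekt4 (0.850). In WT, the fourth retina read -0.16 against -0.07 to -0.06 on the second Ccdc65 probe (0.862), and the first read -2.76 against -2.61 to -2.59 on the first Ropn1l probe (0.905).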

How the results depend on the processing

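The 4 probes called lower became 0 with a fold limit of 1.5, 1 with no filter on dim probes, 1 under the replicate block, 7 with no fold limit, and between 2 (without the second WT retina) and 4 when 1 retina was left out; the cause was not tested, beyond the looser and stricter limits themselves. The 0 probes called higher became 1, a Tekt1 probe, when the percentile was taken over the probes detected on all arrays. The median difference of -0.11 was -0.08 with no filter, -0.05 with normexp and -0.08 relative to the median of all tested probes, the last added after seeing the data. No direction of these 3 results turned. Over all tested probes the 522 lower and 470 higher calls became 368 and 583 with the percentile over detected probes, 389 and 518 with quantile normalization, 358 and 366 with normexp, 54 and 84 at a fold limit of 1.5, and 179 and 216 under the replicate block; with no filter there were 246 calls in all, against 992, and with 1 retina left out 369 (without the second WT retina) to 1183 (without the first KO retina). Retinas of the same number were correlated in their deviations at 0.25, 0.07, 0.04 and 0.11, and 3 of 4 WT retinas were nearest to their own number. Whether the numbers mark pairs cannot be told from these values. The choice matters, since under the replicate block Rsph9 alone stayed called. Normexp used the median signals. Dim probes near background, such as the third Ccdc65 probe, limit what can be read from the lowest levels.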
